A study of Mus musculus with 3 samples.

Results

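The tight junction genes on the array were the claudins and the genes that build, anchor and position the junction around them. They were taken by gene symbol, with earlier results of these data known, and the rule itself used no measured value: every claudin, the genes of ZO proteins, such as *Tjp1* and *Tjp3*, *Magi1* to *Magi3*, *Jam2* to *Jam4*, and *Ocln*, *F11r*, *Cgn*, *Mpdz*, *Inadl*, *Pard3*, *Pard6a*, *Pard6b*, *Pard6g*, *Crb3*, *Mpp5*, *Cxadr*, *Marveld2* and *Marveld3*. These names held 44 genes with 74 probes, of 27845 gene names with 41174 probes in all. Claudins made up 21 of the 44 genes. The choroid plexus epithelium (CPE), the cell layer that covers the choroid plexus in the brain ventricles, was laser dissected from the lateral ventricles of 3 healthy adult female C57BL/6 mice, for which the labels name no transgene or treatment, and its amplified RNA carried the red dye Cy5. On each of the 3 arrays it was hybridised against a common reference, C57BL/6 RNA from the pigmented epithelium of the retina (RPE) together with the choroid, which carried the green dye Cy3. Each array lay on its own slide, the dyes were not swapped, and a dye bias of a probe stays in its ratio. Each mouse had 1 array, so a difference between mice cannot be told apart from one between arrays. The reference was 1 RNA. The error therefore covers the spread between 3 mice with their arrays and not that of the reference tissue. That tissue is a mixture of an epithelium with vessels and stroma. In dissected tissue, fewer cells of a type and less RNA per cell cannot be told apart.

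A tight junction seals the space between neighbouring epithelial cells near their apical side. Claudins span the membrane and set which ions and how much water pass between cells, so that some of them seal and others form pores. Occludin and tricellulin, the MARVEL proteins, and the junctional adhesion molecules (JAMs) sit in the same strands, ZO proteins tie the strands to actin, and the Par and Crumbs complexes place the junction at the apical border. In the CPE this junction forms the barrier between blood and cerebrospinal fluid. The RPE has a tight junction of its own, which forms the outer blood-retina barrier, so the comparison set one barrier epithelium against a tissue that holds another.

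The dissected material was checked by marker genes. Of 9 tested CPE markers, 8 were higher in CPE than in the reference, among them *Kl* at a log2 ratio of 5.42 and *Kcne2* at 4.17. The CPE signal of transthyretin (*Ttr*) was saturated on all 3 arrays, and its value is not given for that reason. At the brightest probe of each gene, all 6 photoreceptor markers and 5 of 5 stromal markers were lower. So were 4 of 6 RPE markers, *Ttr* being shared with the CPE list. Of the 3 probes of the stromal marker *Col1a1*, 1 was called lower and 1 higher. Lower here means lower than the reference, which itself holds stroma, and not absent from CPE. The median CPE percentile was 96.5 for the stromal, 84.1 for the photoreceptor and 72.9 for the RPE markers. The part of such cells in the dissected material was not tested. The 2 ependymal markers on the array, *Foxj1* and *Dynlrb2*, were higher, at 2.98 and 4.42. CPE probes well above background made up 58.5%, 46.0% and 85.6% of all probes in mice 1, 2 and 3.

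RefSeq promoters on GRCm38.p6 were found for 31 of the 44 genes. The 250 bases before the annotated start were searched on both strands for 3 motifs. CACCTG, whose reverse complement is CAGGTG, holds the E-box letters that Snail-family repressors of claudin genes can bind. GGGCGG, read from the other strand as CCGCCC, is the GC box of Sp1-family factors. TATAAA, read from the other strand as TTTATA, is the core of a TATA box. The E-box letters were present in 8 of 31 promoters (25.8%) against 17.1% of all 27025 promoters, the GC box in 19 (61.3%) against 33.0%, and TATAAA in 2 (6.45%) against 12.98%. Matches were counted for each motif on its own, and no matches overlapped in the windows shown. Windows are shown for *Cldn2* and *Ocln*, whose log2 ratios were the highest of their families. They are also shown for *Cldn3* and *Cldn4*, neighbours on chromosome 5 with mean ratios of opposite sign. The *Cldn4* mean did not pass the test given below, and its ratio in mouse 3 lay above 0. Capitals mark the letters searched for, and each window is written 5′ to 3′ in the direction of the gene, ending at the base before the start.
Cldn2 (GRCm38.p6, chrX:139800558-139800807, plus strand): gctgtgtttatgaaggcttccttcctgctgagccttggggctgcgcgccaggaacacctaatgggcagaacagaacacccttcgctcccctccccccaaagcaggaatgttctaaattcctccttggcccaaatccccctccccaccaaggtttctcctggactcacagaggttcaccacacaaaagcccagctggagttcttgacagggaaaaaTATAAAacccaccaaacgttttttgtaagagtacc
Ocln (GRCm38.p6, chr13:100552719-100552968, minus strand): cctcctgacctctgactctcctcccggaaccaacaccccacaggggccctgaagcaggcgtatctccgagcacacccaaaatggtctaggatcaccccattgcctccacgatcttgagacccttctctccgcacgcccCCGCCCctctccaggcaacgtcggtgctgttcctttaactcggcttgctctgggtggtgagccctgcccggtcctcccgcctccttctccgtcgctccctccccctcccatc
Cldn3 (GRCm38.p6, chr5:134985964-134986213, plus strand): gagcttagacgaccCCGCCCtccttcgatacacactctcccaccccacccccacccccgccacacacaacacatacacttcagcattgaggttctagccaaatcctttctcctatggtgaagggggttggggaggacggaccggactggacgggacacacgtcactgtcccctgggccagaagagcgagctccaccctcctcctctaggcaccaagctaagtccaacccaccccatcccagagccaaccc
Cldn4 (GRCm38.p6, chr5:134946935-134947184, minus strand): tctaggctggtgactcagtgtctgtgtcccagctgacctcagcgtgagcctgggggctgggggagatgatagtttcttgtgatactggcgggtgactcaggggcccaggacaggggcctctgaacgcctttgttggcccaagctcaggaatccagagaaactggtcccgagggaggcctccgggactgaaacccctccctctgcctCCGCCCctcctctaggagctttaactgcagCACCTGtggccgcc
The *Cldn2* window held TATAAA, beginning 35 bases before the start, and neither of the other motifs. The *Ocln* and *Cldn3* windows held 1 GC box each, beginning 112 and 236 bases before the start. The *Cldn4* window held a GC box 44 bases and the E-box letters 14 bases before the start. These are matches of letters and not sites at which binding was measured.

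Of the 44 genes, 41 could be tested, each by its brightest probe. *Cldn6*, *Cldn15* and *Cldn18* were below the detection limit used, a signal well above background in a channel of every array, and stayed untested. A gene was past the threshold at a limma adjusted p under 0.05, adjusted over the 25840 probes tested, and a change of at least 2-fold. By this rule 8 of 41 genes (19.5%) were higher in CPE than in the reference, against 8.05% of all 17841 genes tested, and 5 (12.2%) were lower, against 11.1%. Together these were 13 of 41 genes, against 19.1% of all genes. The genes higher in CPE were *Ocln*, *Cldn2*, *Cldn3*, *Cldn9*, *Cldn11*, *Tjp3*, *Crb3* and *Jam4*, and those lower were *Cldn23*, *Jam3*, *Tjp1*, *Cldn7* and *Magi2*. When the log ratios were centred on the median of each array in place of loess, 11 genes were higher and 4 lower, and with the scanner software's own log ratio 10 were higher and 4 lower. At any fold, 26 of the 41 genes had an adjusted p under 0.05, against 42.3% of all genes. The median log2 ratio over the 41 genes was −0.10, against −0.04 over all genes tested, and 19 of the 41 lay above 0. The genes therefore moved both ways, with the 4-fold and larger changes upwards in *Ocln* and *Cldn2* and downwards in *Cldn23*.

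**Figure D1:**
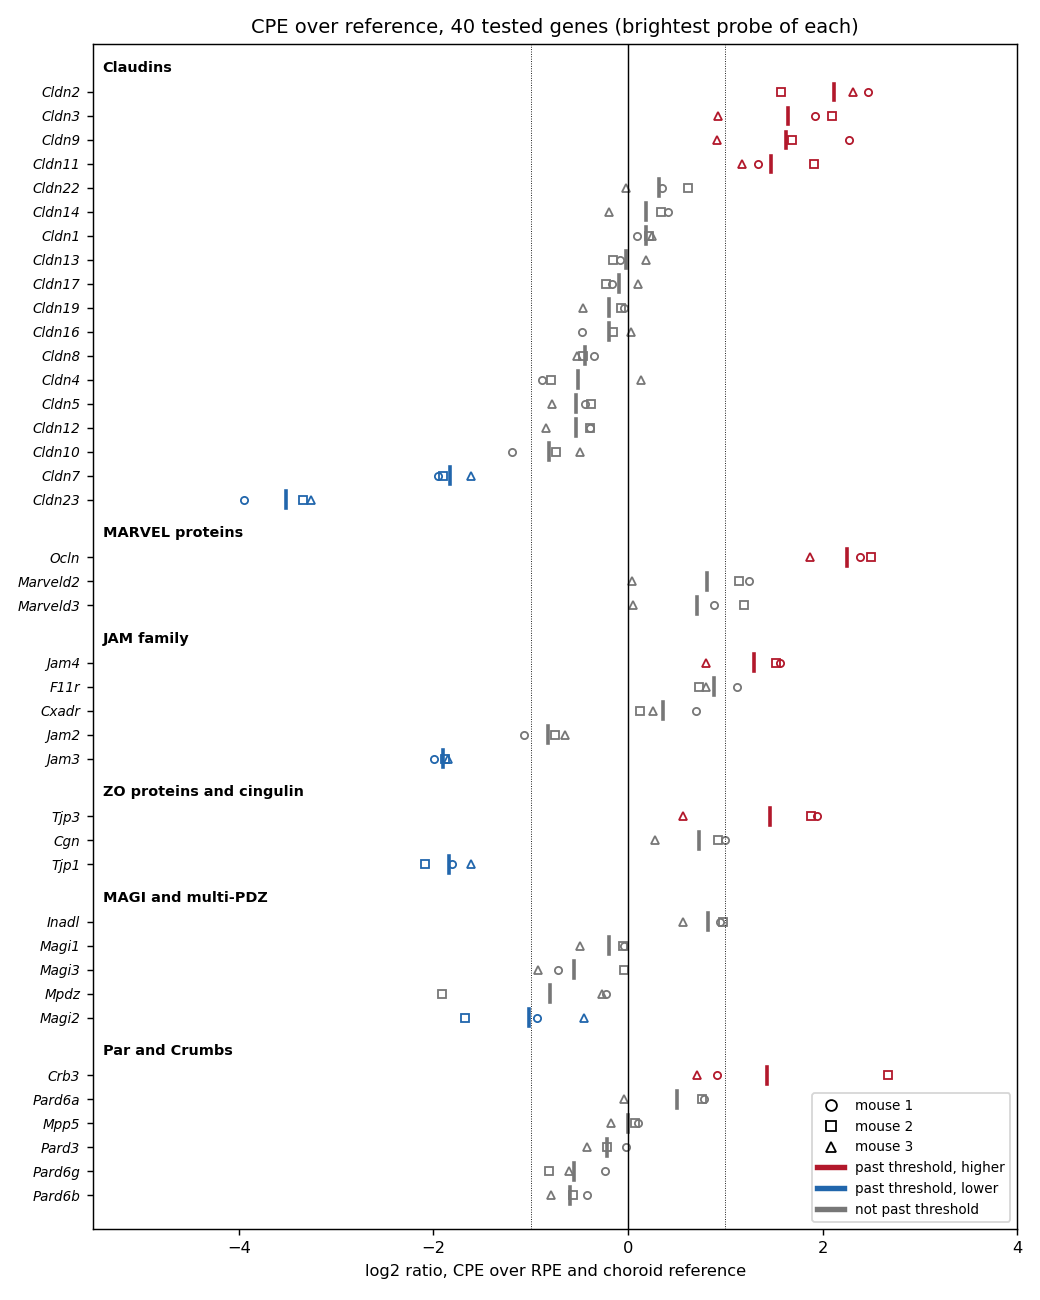
Log2 ratio of CPE over the RPE and choroid reference in each of 3 mice (symbols) and their mean (bar) for the brightest probe of 40 of the 41 tested genes, grouped by role, with dotted lines at a 2-fold change. The means of *Ocln* and *Cldn2* lie furthest to the right, that of *Cldn23* lies furthest to the left at −3.51, and mouse 3 (triangles) lies nearest to 0 in 12 of the 13 coloured genes.

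Among the claudins, 4 of 18 tested genes (22.2%) were higher in CPE and 2 (11.1%) were lower, against 8.05% and 11.1% of all genes tested. *Cldn2*, which encodes the pore-forming claudin of leaky epithelia that lets cations and water pass, had log2 ratios of 2.47, 1.57 and 2.31 in mice 1, 2 and 3. All 3 mice lay above 0 by more than 2-fold, and the mean of 2.12 ± 0.48 (SD, n = 3) was a 4.33-fold difference (moderated SE 0.21, adjusted p = 0.000242). Its probe lies at chrX:135157069-135157128 on mm8, the build of all probe positions given here. In the CPE channel this probe ranked at percentile 97.8, 95.3 and 97.6 of all probes in the 3 mice, and on the reference channel at 86.3 on average.

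*Cldn3*, a sealing claudin, had log2 ratios of 1.92, 2.10 and 0.93 (chr5:135271936-135271995). Mouse 3 lay lower than the other two and under 2-fold, while the mean of 1.65 ± 0.63 (SD, n = 3) was 3.13-fold (adjusted p = 0.00157). Its CPE percentile was nearly level over the mice at 89.8, 91.5 and 91.4. Its percentile in the reference channel, which held the same RNA on every array, was 65.1, 66.2 and 84.4. The array on which *Cldn3* had its lowest ratio was thus the one where its reference signal ranked highest. *Cldn3* and *Cldn4* probes lie 41.8 kb apart on mm8. *Cldn4*, also a sealing claudin, had log2 ratios of −0.89, −0.80 and 0.13, with a mean of −0.52 that did not pass the test (adjusted p = 0.106), and it was above background in CPE on 2 of 3 arrays. Its CPE percentile was 47.7, 43.4 and 87.6. In the reference channel it was 68.0, 65.8 and 85.9, so that array 3 stood apart in both channels. The difference in ratio between these neighbours was not tested.

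*Cldn9*, a claudin best known from the inner ear, had log2 ratios of 2.27, 1.68 and 0.91 (chr17:23410823-23410882). The 3 mice were spread over more than 2-fold but did not reach 0, and the mean was 1.62 ± 0.68 (SD, n = 3), a 3.07-fold difference (adjusted p = 0.00212). Its CPE percentile of 70.3 stood against 13.7 in the reference channel, the widest gap upwards among the called genes. In the 3 mice the CPE percentile was 78.4, 70.5 and 48.6, so mouse 3 lay in the low class. With the scanner software's log ratio its mean was 2.53. The neighbouring *Cldn6*, known from embryonic epithelia, has its probe 1141 bases away and was above background on 1 of 3 arrays in each channel, with untested log2 ratios of 0.93, 0.59 and 0.37.

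*Cldn11*, which forms the strands of myelin, testis and inner ear, had log2 ratios of 1.33, 1.91 and 1.17 (chr3:31354878-31354937). All 3 mice were above 2-fold, with a mean of 1.47 ± 0.39 (SD, n = 3) or 2.77-fold (adjusted p = 0.000851). Because *Cldn11* is also an oligodendrocyte gene, the oligodendrocyte markers are given beside it. Of 5 tested, 2 were past the threshold at the brightest probe, among them *Cnp* (1.24), while *Mbp*, *Mag* and *Mobp* were not. Of the 3 *Mbp* probes, 1 was past the threshold and higher in CPE. The list's median log2 ratio was 1.09, 1.01 and 0.36 in the 3 mice. *Mog* was above background in CPE on 2 arrays and was not tested. The part of such cells in the *Cldn11* value was not tested.

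Both claudins that were lower in CPE ranked near the 90th percentile of the reference channel. *Cldn23* had log2 ratios of −3.95, −3.34 and −3.26 (chr8:37293614-37293673), and the mean of −3.51 ± 0.38 (SD, n = 3) was 11.4-fold lower (adjusted p = 1.74e-05). The mice overlapped with no other claudin. Its reference percentile was 91.0 and its CPE percentile 44.5, in the low class, although the CPE signal was above background on all 3 arrays. *Cldn7*, a claudin of many tight epithelia, had log2 ratios of −1.96, −1.90 and −1.61 (chr11:69783473-69783782), close together, with a mean of −1.83 ± 0.18 (SD, n = 3) or 3.54-fold lower (adjusted p = 0.000138). It ranked at 73.4 in CPE and 89.8 in the reference.

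The 12 other tested claudins had mean log2 ratios between −0.81 and 0.32. *Cldn1*, a sealing claudin whose loss opens the skin barrier, was in the high class in CPE at percentiles of 91.9, 92.2 and 87.9 and ranked at 89.0 in the reference. Its log2 ratios of 0.09, 0.21 and 0.24 gave a mean of 0.18 (adjusted p = 0.373), and a further probe had a mean of −0.52 (adjusted p = 0.055), so *Cldn1* was highly ranked in both channels with no difference that passed the test. *Cldn10* (−0.81), whose isoforms form ion-selective pores, *Cldn5* (−0.54), the main claudin of brain endothelium, *Cldn12* (−0.54) and *Cldn8* (−0.45) had adjusted p values of 0.0105, 0.0328, 0.0362 and 0.0492 and stayed under 2-fold. *Cldn5* ranked at 82.8 in CPE. Of the 7 endothelial markers beside it, all above background in CPE on 3 arrays, 1 was higher (*Tie1*, 1.21) and 1 was lower (*Vwf*, −1.53), and the list's median was 0.38. The part of endothelial cells in the *Cldn5* value was not tested.

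Among the remaining claudins, *Cldn8*, *Cldn13*, *Cldn16*, *Cldn17* and *Cldn19*, several of them kidney claudins, were dim in CPE, where each was well above background on 1 of 3 arrays, against all 3 in the reference. *Cldn8* had log2 ratios of −0.35, −0.46 and −0.52, and all 3 mice were below 0. *Cldn16* had −0.47, −0.15 and 0.03, *Cldn17* −0.17, −0.23 and 0.10, *Cldn19* −0.04, −0.07 and −0.47, and *Cldn13* −0.09, −0.16 and 0.19. None of these 4 means lay further than 0.20 from 0. *Cldn14* (0.18) and *Cldn22* (0.32), at CPE percentiles of 47.8 and 70.9, were above background in CPE on all arrays and did not pass the test. Of 21 claudins, 12 were above background in CPE on all 3 arrays, against 18 in the reference. Detection also differed between the channels over all probes of the array. It was 58.5%, 46.0% and 85.6% in CPE and 71.0%, 68.6% and 84.2% in the reference on arrays 1, 2 and 3. The claudin counts are thus not a result about claudins alone.

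Rank within the CPE channel was given by the expression class, with high above the 90th percentile of all probes, moderate from the 50th, low from the 10th and very low below it. Hybridisation efficiency varies between probes, and a class therefore places a probe on the array and does not order genes by abundance. Of the 44 genes, 6 were high, 29 moderate, 9 low and 0 very low. Among the high genes were *F11r* (98.4), *Cldn2* (97.1), *Cldn3* (91.1), *Cldn1* (91.1) and *Ocln* (90.8). All 6 high genes were among the 41 tested genes. Of all 17841 tested genes, 3545 (19.9%) were in the high class, so the share was not higher among the members. *Cldn3*, *Cldn1* and *Ocln* lay just above the limit, and the next gene below it was *Inadl* at 86.1. When the ranking was limited to probes well above background in CPE, *F11r* (96.4) and *Cldn2* (93.6) were the 2 genes left in the high class. By the class of the brightest probe, all 9 low genes were claudins, namely *Cldn6*, *Cldn8*, *Cldn13*, *Cldn14*, *Cldn16*, *Cldn17*, *Cldn18*, *Cldn19* and *Cldn23*. The claudins had 23 probes for 21 genes, against 74 probes for all 44 genes, so most claudins offered no choice of probe. Some further probes of *Cxadr*, *Jam3*, *Ocln*, *Inadl*, *Magi3*, *Cgn*, *Pard3* and *Pard6b*, among others, were also in the low class. The part of probe number in the claudin pattern was not tested. In the reference channel 5 genes were high, 26 moderate, 12 low and 1 very low, and 2 genes, *F11r* among them, were high in both.

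**Figure D2:**
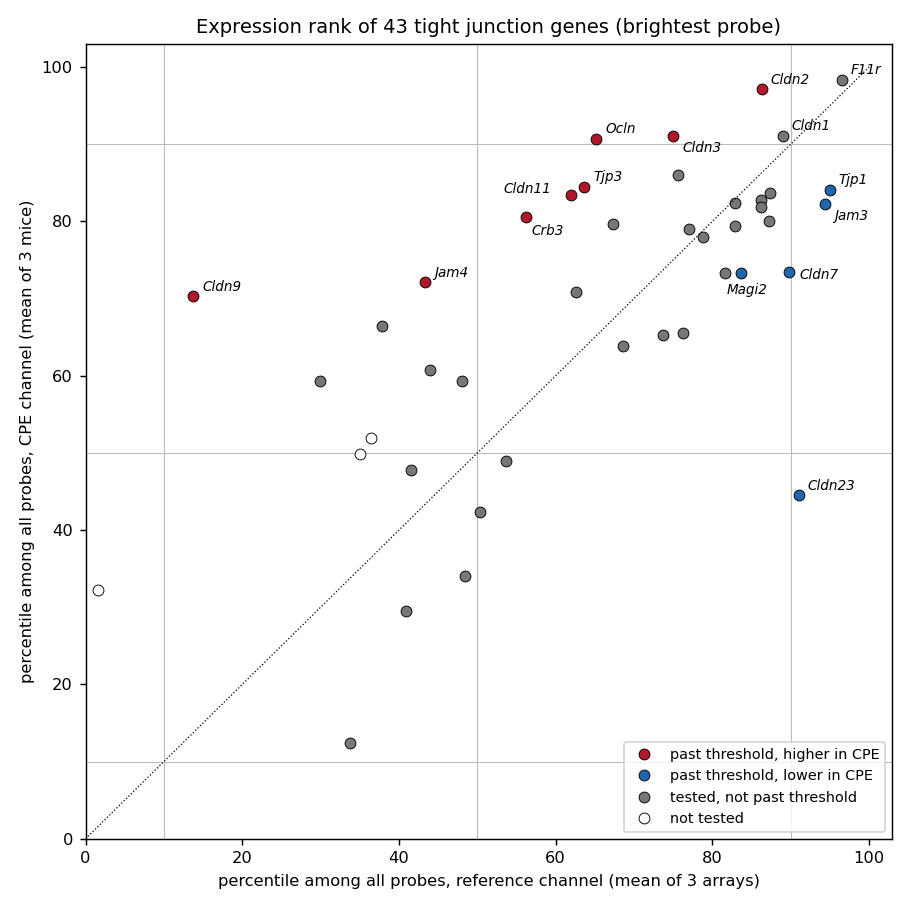
Percentile of the brightest probe of each of 43 of the 44 genes among all probes in the CPE channel (vertical, mean of 3 mice) against the reference channel (horizontal, mean of 3 arrays), with grey lines at the class limits and a dotted line of equal rank. *Cldn9* (13.7 in the reference, 70.3 in CPE) stands furthest above the line among the called genes and *Cldn23* (91.0 in the reference, 44.5 in CPE) furthest below it.

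Of the MARVEL proteins, *Ocln* was higher in CPE. It encodes occludin, a membrane protein of the strands, and had log2 ratios of 2.39, 2.50 and 1.87 (chr13:101598416-101598475). The 3 mice lay close together, and the mean of 2.25 ± 0.33 (SD, n = 3) was a 4.76-fold difference (adjusted p = 9.19e-05). Its CPE percentiles were 90.3, 91.7 and 89.5, against a mean of 65.2 in the reference. A further *Ocln* probe was above background in CPE on 2 arrays and was not tested. *Marveld2*, which encodes tricellulin of the corners where 3 cells meet, had log2 ratios of 1.24, 1.14 and 0.04, and *Marveld3* had 0.88, 1.19 and 0.05. At the brightest probe of both genes mouse 3 lay near 0 and the other mice around 2-fold. The means of 0.81 (adjusted p = 0.0345) and 0.71 (adjusted p = 0.0431) stayed under 2-fold. Without mouse 3 they were 1.19 and 1.04 and past the threshold. The further *Marveld2* probe had 0.68, −0.21 and 0.07, with a mean of 0.18 (adjusted p = 0.513). That of *Marveld3* had a mean of 0.59 (adjusted p = 0.026).

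The JAM family and its relatives, adhesion molecules of the immunoglobulin type, moved in both directions. *Jam4*, named *Igsf5* by RefSeq, had log2 ratios of 1.56, 1.52 and 0.80 (chr16:96501311-96501370), with a mean of 1.29 ± 0.42 (SD, n = 3) or 2.45-fold higher in CPE (adjusted p = 0.00186). Its further probe gave 1.82, 1.94 and 0.81, with a mean of 1.52 that was also past the threshold. Both probes were above background in the reference on 1 of 3 arrays, and with the scanner software's log ratio the mean of the brightest was 3.38. *Jam3*, by contrast, had log2 ratios of −1.99, −1.88 and −1.85 (chr9:26847159-26847218), and the mean of −1.91 ± 0.07 (SD, n = 3) was 3.75-fold lower (adjusted p = 9.04e-05). The spread of *Jam3* was the smallest of the called genes, and it ranked at 82.3 in CPE against 94.4 in the reference. *F11r*, which encodes JAM-A and whose probe ranked highest of the 44 genes in CPE, had percentiles of 98.4, 98.2 and 98.4. Its log2 ratios of 1.12, 0.73 and 0.80 gave a mean of 0.88 (adjusted p = 0.0043), 1.84-fold and short of the 2-fold limit. With median centring its mean was 1.68. *Jam2*, an adhesion molecule of endothelium, had a mean of −0.82 (adjusted p = 0.00603), also under 2-fold. *Cxadr*, the coxsackie and adenovirus receptor, had log2 ratios of 0.70, 0.13 and 0.26 (adjusted p = 0.137), and its brightest probe was above background in CPE on 2 arrays.

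Among the ZO scaffold proteins, *Tjp3* and *Tjp1* lay on opposite sides of 0. *Tjp3*, which encodes ZO-3, had log2 ratios of 1.94, 1.88 and 0.57 (chr10:80676934-80676993). Mouse 3 stood apart, and the mean of 1.46 ± 0.78 (SD, n = 3) was 2.76-fold higher in CPE (adjusted p = 0.00493). *Tjp1*, which encodes ZO-1, had log2 ratios of −1.81, −2.08 and −1.62 at its brightest probe (chr7:65175767-65175826), with a mean of −1.84 ± 0.23 (SD, n = 3) or 3.57-fold lower (adjusted p = 0.000159). The other tested *Tjp1* probe had a mean of −0.03 (adjusted p = 0.901), and with the mean of both probes (−0.93) the call was lost. The brightest probe ranked at 84.1 in CPE and 94.99 in the reference. *Cgn* encodes cingulin, which links ZO proteins to the cytoskeleton and RhoA signalling. Its mean of 0.73 (adjusted p = 0.0182) was 1.66-fold.

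Of the MAGI and multi-PDZ scaffold genes, *Magi2* was lower in CPE, with log2 ratios of −0.93, −1.68 and −0.46 (chr5:20214680-20214739). The mice were spread widely, and the mean of −1.02 ± 0.61 (SD, n = 3) was 2.03-fold (adjusted p = 0.0117). This call rested on mouse 2: without it the mean was −0.69 and no longer past the threshold. With median centring it was −0.61 (adjusted p = 0.198). *Inadl*, named *Patj* by RefSeq, which joins the Crumbs complex to the junction, had a mean of 0.82 (adjusted p = 0.0062) and was under 2-fold. *Mpdz*, which encodes the related scaffold MUPP1, had log2 ratios of −0.23, −1.91 and −0.27 with a mean of −0.81 (adjusted p = 0.0843), and its further probe had −0.33, −1.51 and −0.68. Mouse 2 was thus the lowest at both probes of *Mpdz*. *Magi1* (−0.19) and *Magi3* (−0.56) did not pass the test.

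In the Par and Crumbs group, *Crb3*, which encodes the apical Crumbs protein of most epithelia, was higher in CPE. Its log2 ratios were 0.92, 2.67 and 0.71 (chr17:56750988-56751047), and mouse 2 stood far above the others. The mean of 1.43 ± 1.08 (SD, n = 3) was 2.70-fold (adjusted p = 0.0153), and without mouse 2 it was 0.81, under 2-fold. The CPE percentiles of 71.2, 90.2 and 72.3 showed the same mouse apart. *Mpp5*, which encodes the PALS1 partner of Crumbs, had a mean of 0.00 (adjusted p = 0.993). *Pard6a* (0.50), *Pard6b* (−0.59) and *Pard6g* (−0.55) encode Par6 proteins that hold atypical protein kinase C, and *Pard3* (−0.22) encodes their partner Par3. None of the 4 reached 2-fold at its brightest probe. *Pard6b* (adjusted p = 0.0207) and *Pard6g* (adjusted p = 0.0364) passed the p limit, while *Pard6a* (adjusted p = 0.0883) and *Pard3* (adjusted p = 0.323) did not.

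The probes of a gene did not always give one value. Of 16 genes with 2 or more tested probes, 4 had probes whose means differed by at least 1 log2 unit. For *Tjp1*, the further probe, 16451 bases away on mm8, had log2 ratios of −0.13, −0.12 and 0.16 around its mean near 0. The difference between its probes was 1.68, 1.97 and 1.78 in the 3 mice, so it was alike in every mouse, and the *Tjp1* call belongs to the brighter probe. The dimmer probe was above background in CPE on 2 of 3 arrays. For *Pard3*, a probe at chr8:130318920-130318979 had log2 ratios of 1.41, 1.87 and 0.97 and was past the threshold with a mean of 1.42 (adjusted p = 0.00139), and it was above background in the reference on 2 of 3 arrays. Another *Pard3* probe 31003 bases away had −0.48, −0.81 and −0.39. The differences between these probes were 1.89, 2.69 and 1.35, again of one sign in all mice. *Pard6g* had a further probe with log2 ratios of 0.70, 0.77 and 0.42 and a mean of 0.63 (adjusted p = 0.0165). It lies 596 bases from the brightest, which had −0.24, −0.81 and −0.61 and a mean of −0.55 (adjusted p = 0.0364). These probes thus passed the p limit on opposite sides of 0, both under 2-fold. Of the 12 other genes, *Jam4* had both probes past the threshold. Which transcripts each probe reads was not examined, since no annotation of mm8 was used here.

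**Figure D3:**
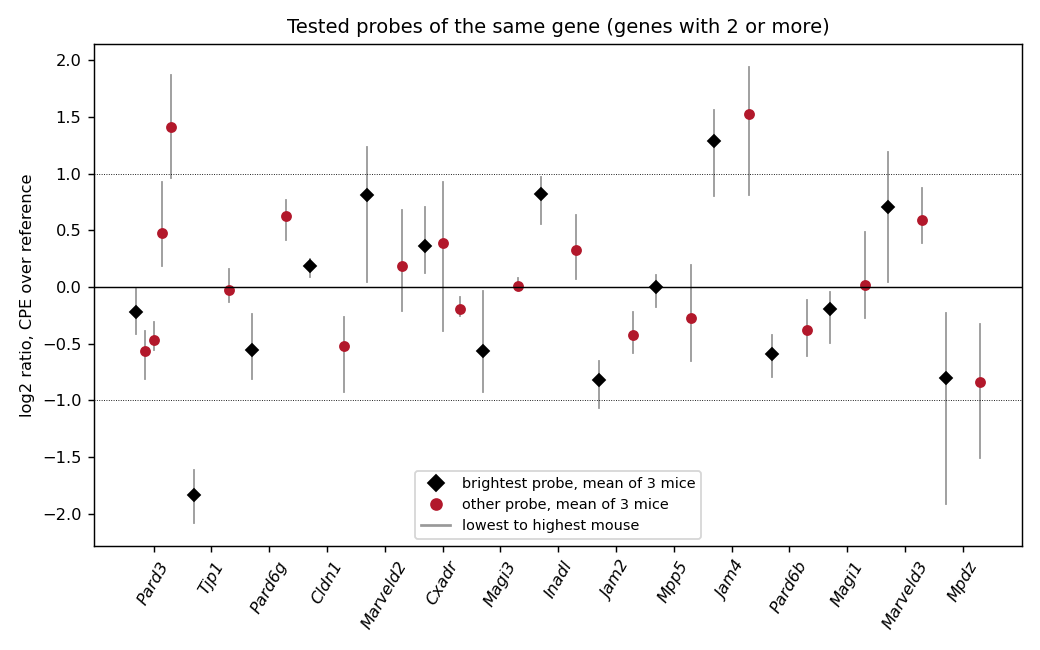
Mean log2 ratio of CPE over reference of every tested probe of 15 of the 16 genes with 2 or more, ordered by how far the probes differ, with the brightest probe in black, the others in red and a line from the lowest to the highest mouse. *Pard3* and *Tjp1*, at the left, had probes 1.98 and 1.81 log2 units apart, and the lines of those probes did not overlap.

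The mice, each on its own array, differed in a regular way. All 13 called genes had one sign in all 3 mice, as did 3410 of all 3416 called genes of the array. The shared sign is thus not a result about the members. Mouse 3 was nearest to 0 in 12 of the 13, the exception being *Cldn2*. Over all called genes of the array, mouse 3 was nearest to 0 in 61.4%. Mouse 3 was the array with the most probes above background in both channels. The part of this in the members' ratios was not tested beyond leaving the mouse out, which left 10 genes higher and 6 lower.

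**Figure D4:**
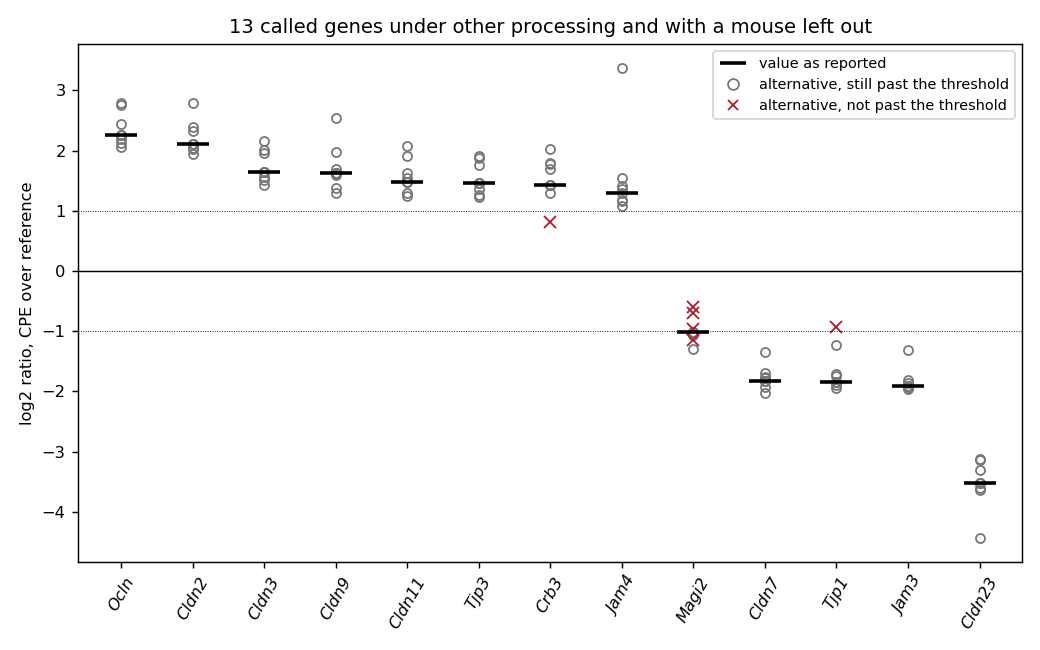
Mean log2 ratio of the 13 called genes as reported (bar) and under each other processing or with a mouse left out (circles, past the threshold, and crosses, not past it). *Magi2* lost its call under 4 settings, *Tjp1* and *Crb3* under 1 each, and no gene changed sign.

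Further genes of the junction were read out beside the members. Of 47 such genes (other tricellular, cortical, polarity and nectin genes), 46 were on the array and tested, and 6 (13.04%) were higher in CPE and 10 (21.7%) lower, against 8.05% and 11.1% of all genes, with a median log2 ratio of 0.05. *Cgnl1*, which encodes paracingulin, a relative of cingulin, had log2 ratios of 1.85, 2.00 and 2.03. The mice were nearly equal, the mean of 1.96 was past the threshold (adjusted p = 8.24e-05), and 3 of its 5 probes were called. *Rhoa* (1.58), the small GTPase that tightens junctional actomyosin, and *Wwc1* (1.57), the Hippo pathway protein KIBRA, followed. The lowest were the nectin *Pvrl3* (−2.46), the photoreceptor and Müller cell polarity gene *Crb1* (−2.45) and *Lin7a* (−2.15), a partner of the PALS1 complex. The *Crb1* probe was well above background in CPE on 1 of 3 arrays, so its place among these 3 is uncertain. *Crb1* lay in the same contrast as the photoreceptor markers, whose list median was −4.88, and their part in its value was not tested.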

How the data were processed

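Scanner tables of 3 two-channel Agilent arrays were used. The authors' scanner software was Agilent Feature Extraction 9.5.3.1. Per the file headers, a spot has a linear intensity and a background intensity in each channel, flags (outlier, saturated, well above background) and the log10 ratio of the processed red over green intensity. A deposited table holds, on the log2 scale, levels that the authors normalized between arrays (R 2.14.0 is named in their processing notes). Its rank correlation with the CPE channel was 0.998, 0.998 and 0.9997 on the 3 arrays, so it was taken as levels and used as an alternative. Whether the authors corrected the background is not given in the sources used here.

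With R 4.3.3 and limma 3.58.1, intensities were corrected by normexp (offset 50) and loess within arrays, without control spots or spots flagged as outliers, and replicate spots were averaged per probe. The 25840 probes whose signal in 1 channel or both was flagged well above background on every array were fitted with an intercept-only model, and the mean log2 ratio was set against 0 by limma's moderated test with Benjamini-Hochberg adjustment. A gene was represented by its brightest tested probe. Percentiles came from log2 red intensities without background correction, normalized with Aquantile, averaged over mice and ranked over 41174 probes. The number of arrays limits the precision. The code was tested on simulated data.

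Values in every mouse are given for members past the threshold, in the high class or dim in 1 channel. They are also given for probes of a gene where these differed by 1 log2 unit. Of the further genes the 3 highest and 3 lowest called ones are named, by their means except for *Cgnl1*. Other per-mouse values were added after they had been seen. A member and a marker gene, both included in the counts, are not reported here by name. The members and lists were chosen with earlier results of these data known. Probe positions are those of the files (mm8), promoters and current symbols are RefSeq's (GRCm38.p6), and 59 of 74 probes matched a RefSeq symbol. No probe sequence was used here. Alternatives were no background correction, the scanner log ratio, median centring, other filters, the mean of a gene's probes, and leaving out each mouse. Human samples were not used here.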

Additional observations from a re-analysis of the deposited data

How the results depend on the processing

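Each ratio paired CPE with the reference on the same array, and with 1 group no comparison between groups of mice was possible. Over all alternatives, no called gene changed sign. The count of genes higher in CPE was 8 as reported and lay between 7 and 10 when a mouse was left out, 8 without background correction, with no filter on dim probes and with the mean of a gene's probes, 7 with only probes above background in both channels (where *Jam4* was no longer tested), 10 with the scanner log ratio and 11 with median centring. The count of genes lower was 5 as reported, 4 to 6 with a mouse left out, and 4 or 5 otherwise. *Magi2* lost its call without background correction (−0.96), with the scanner log ratio (−1.15), with median centring (−0.61) and without mouse 2 (−0.69), *Tjp1* with the mean of its probes (−0.93), and *Crb3* without mouse 2 (0.81). The scanner log ratio raised *Jam4* to 3.38 and *Cldn9* to 2.53, and the cause was not tested. Calls were gained by *F11r*, *Marveld3* and *Inadl* with median centring, by *Cgn* and *Inadl* with the scanner log ratio, and by *Marveld2* and *Marveld3*, among others, without mouse 3. Median centring moved the median of all tested ratios from −0.04 to 0.09, and *Cldn5*, *Magi1* and *Pard3*, not past the threshold, changed sign with it. Several called genes moved up further than that median. *Cldn2* went from 2.12 to 2.78, *Ocln* from 2.25 to 2.76, *Jam3* from −1.91 to −1.31 and *Tjp1* from −1.84 to −1.22. *Jam4* (1.29 to 1.37) and *Cldn9* (1.62 to 1.70) moved less than it. The number of genes in the high class was 6 as reported, 5 to 6 with a mouse left out, and 2 when only probes well above background in CPE were ranked, since the dim probes that fill the lower ranks were then absent. With 3 mice, 1 reference RNA and no dye swap, a dye effect on a probe cannot be told apart from a tissue difference.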
